A study of Homo sapiens with 4 samples.

Results

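Imprinted genes are genes of which a cell mainly uses the copy from 1 parent. The 31 genes described here were matched by symbol from a list of known human imprinted genes. All 31 were found among the 23368 entries of the deposited count table, and they fall into 16 imprinted domains. The cells were 4 human leukemia lines of the B-lymphoid precursor type, each sequenced once as mRNA. Both RS4;11 and SEM carry t(4;11), which rearranges the MLL gene, while NALM6 and REH do not. Cultures grew in RPMI with 10% serum from fetal calves to below confluence, and no other agent is named. Each line is a culture from a different leukemia, so a difference between the groups (n = 2 each) includes every other difference between these lines. The read counts do not separate the parental alleles, and in bulk RNA fewer expressing cells and less RNA per cell cannot be told apart.

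Imprints are set in the germ line as DNA methylation on 1 parental copy of a control region. They are kept in body cells through each round of DNA replication. Changes of imprinted domains cause growth and behaviour disorders such as the Prader-Willi, Angelman, Beckwith-Wiedemann and Silver-Russell syndromes. Many imprinted genes act in fetal growth and in stem cells, those of the blood included, and are low in mature tissues.

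The libraries held between 33620574 counts (SEM) and 84212986 counts (REH). Levels are given as CPM, counts scaled to a common library total. A floor of 3 counts corresponded to between 0.0356 CPM in REH and 0.0892 CPM in SEM, which covers counting error only. Of 13 B-precursor markers, 10 stood at 1 CPM or more in every line, with PAX5 between 254 and 419 CPM. The 13 summed to between 1617 CPM (SEM) and 9681 CPM (REH), so the lines were not alike. Both t(4;11) lines were below both others for 7 of the 13 and above for 0, against 28.3% and 19.0% of all tested genes. DNTT had 12.9, 0.744, 759 and 1913 CPM in RS4;11, SEM, NALM6 and REH, and VPREB1 had 0.226 CPM in REH. Markers of other cell types were not all absent. The 9 T and NK markers summed to between 4.79 CPM (REH) and 26.1 CPM (RS4;11), with NKG7 at 26.1 CPM in RS4;11 and CD4 at 22.0 CPM in NALM6, while CD3D, CD3E and CD3G had 0 counts in every line. The 9 myeloid markers summed to between 15.3 CPM (NALM6) and 208 CPM (SEM), with CEBPA at 159 CPM in SEM, MPO at 34.2 CPM in REH and ELANE at 0 in every line. The 10 erythroid and megakaryocyte markers summed to between 2.20 CPM (SEM) and 24.6 CPM (REH), with HBB at 0. The 13 stromal, endothelial and epithelial markers summed to between 7.56 CPM (NALM6) and 119 CPM (SEM), most of it from PDGFRB, with COL1A2, DCN and LUM at 0. The part of any of these markers in the differences between lines was not tested.

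The imprinted genes held a set that was on in every line, a set that was off in every line and a set that was on in some lines only. Of the 31 genes, 11 stood at 1 CPM or more in all 4 lines and 10 stood under 1 CPM in all of them. The other 10 reached 1 CPM in 1 line (6 genes), 2 lines (1 gene) or 3 lines (3 genes). Over all entries of the table, 44.2% reached 1 CPM in all lines and 42.3% in none, and 5.34%, 3.79% and 4.36% did so in 1, 2 and 3 lines. REH had 18 imprinted genes at 1 CPM or more, SEM 16, RS4;11 14 and NALM6 13.

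**Figure D1:**
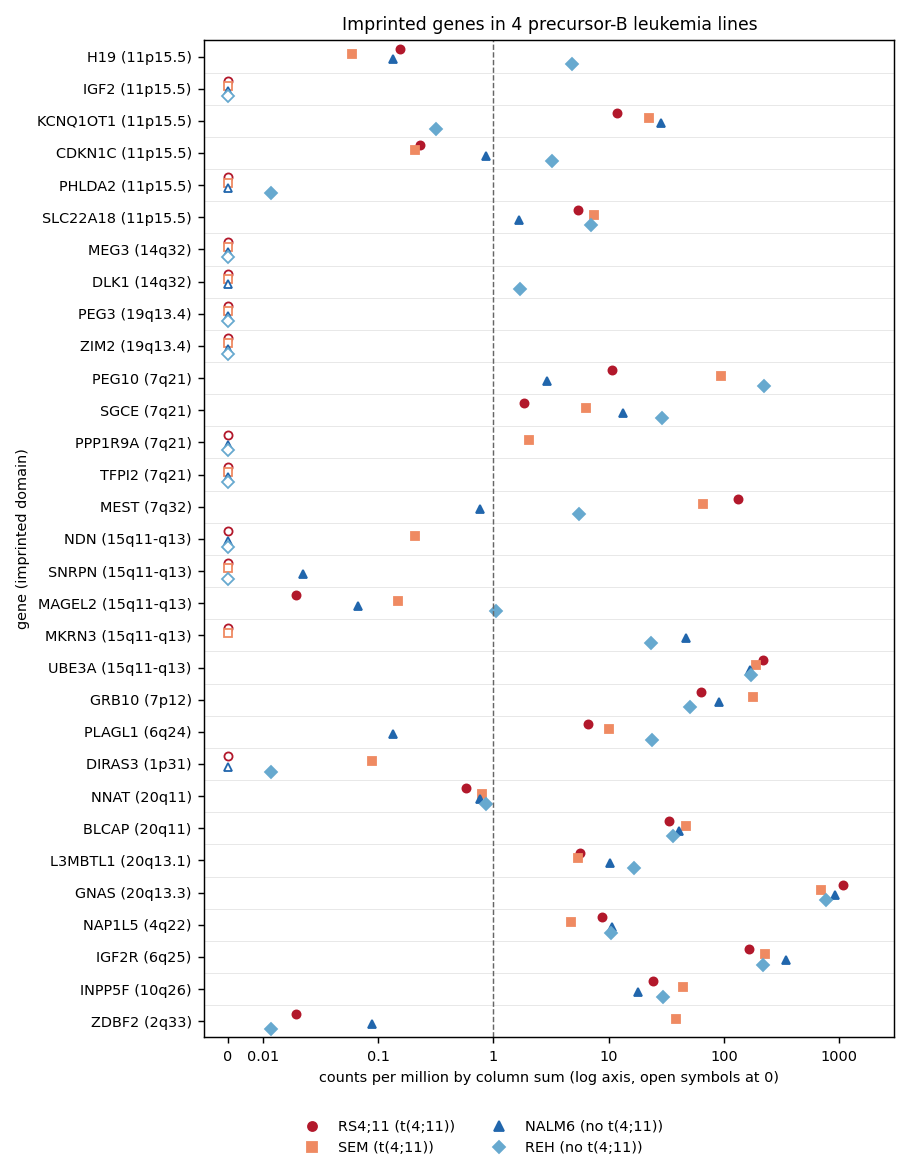
CPM (log axis, open symbols at 0) of the 31 imprinted genes in RS4;11, SEM, NALM6 and REH, with 1 symbol per line and a dashed line at 1 CPM. GNAS, IGF2R and UBE3A sit close together in all lines, while MKRN3, MEST, ZDBF2, PLAGL1 and KCNQ1OT1 are spread widely.

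On-and-off patterns were counted in 2 ways. Of the 21 imprinted genes at 1 CPM or more in some line, 6 (28.6%) stood under 0.1 CPM in another line: H19, DLK1, PPP1R9A, MAGEL2, MKRN3 and ZDBF2. Some of them lay near a threshold. MAGEL2, DLK1 and PPP1R9A reached at most 1.06, 1.69 and 2.02 CPM, and H19 was under 0.1 CPM in SEM alone, at 2 counts. Among all 13477 genes at 1 CPM or more in some line, 13.1% did so. The count for imprinted genes was 3 of 19 (15.8%) without SEM and 3 of 17 (17.6%) without REH, against 10.3% and 9.0% of all such genes. In 7 of the 21 (33.3%), the 2 lines of one group differed 16-fold or more after 0.1 CPM was added, against 10.7% of all such genes. H19, KCNQ1OT1, DLK1, PEG10 and PLAGL1 did so between NALM6 and REH, and PPP1R9A and ZDBF2 between RS4;11 and SEM. DLK1, PPP1R9A and H19 lay near the limit here too, with highest levels of 1.69, 2.02 and 4.83 CPM. This second count was not repeated with a line left out. The imprinted genes were chosen with earlier results of these data known, which limits the comparison of their shares with those of all genes. These counts describe 4 libraries, and no test was made of them.

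The bases before the start of 5 genes are shown because these genes stand for the different patterns described below. MKRN3 and MEST separated the groups, MAGEL2 is a neighbour of MKRN3 with another pattern, ZDBF2 was on in 1 line, and NAP1L5 was on in every line. The sequences are the 250 bases before a RefSeq start, 5′ to 3′ on the gene's strand, in build GRCh38.p14. Capitals mark TGCCGC, searched on both strands (so also as GCGGCA), the short motif bound by ZFP57, a zinc finger protein that keeps imprints.

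MKRN3, chr15:23565424-23565673, plus strand: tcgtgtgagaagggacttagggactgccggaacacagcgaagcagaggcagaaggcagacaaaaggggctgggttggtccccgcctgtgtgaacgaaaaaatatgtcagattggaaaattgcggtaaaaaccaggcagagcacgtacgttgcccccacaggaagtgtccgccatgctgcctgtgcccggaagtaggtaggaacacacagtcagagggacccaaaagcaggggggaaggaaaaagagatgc

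MAGEL2, chr15:23647868-23648117, minus strand: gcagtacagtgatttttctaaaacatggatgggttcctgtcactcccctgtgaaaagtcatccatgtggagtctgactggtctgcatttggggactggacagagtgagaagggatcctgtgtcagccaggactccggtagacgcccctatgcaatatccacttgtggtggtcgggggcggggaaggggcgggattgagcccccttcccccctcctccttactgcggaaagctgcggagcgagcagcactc

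MEST, chr7:130491808-130492057, plus strand: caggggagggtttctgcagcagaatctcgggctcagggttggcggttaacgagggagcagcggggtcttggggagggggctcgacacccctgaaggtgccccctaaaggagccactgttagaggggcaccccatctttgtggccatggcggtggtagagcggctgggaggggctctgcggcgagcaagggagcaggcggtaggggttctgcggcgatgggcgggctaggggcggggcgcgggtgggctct

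ZDBF2, chr2:206274413-206274662, plus strand: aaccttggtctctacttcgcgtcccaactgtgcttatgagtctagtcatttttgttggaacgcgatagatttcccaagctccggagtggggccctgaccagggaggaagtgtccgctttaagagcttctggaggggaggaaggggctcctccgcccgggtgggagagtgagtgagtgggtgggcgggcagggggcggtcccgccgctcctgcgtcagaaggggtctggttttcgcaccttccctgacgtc

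NAP1L5, chr4:88697830-88698079, minus strand: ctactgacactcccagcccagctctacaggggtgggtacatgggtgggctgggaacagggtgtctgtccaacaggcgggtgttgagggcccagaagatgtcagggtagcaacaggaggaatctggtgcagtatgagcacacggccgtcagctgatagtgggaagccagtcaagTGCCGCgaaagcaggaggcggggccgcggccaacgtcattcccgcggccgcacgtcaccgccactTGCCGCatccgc

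TGCCGC or its reverse complement stood 2 times in the NAP1L5 window and was not among the letters of the other windows shown. MEST and ZDBF2 each have another window that held it 1 time, at start 2 of each gene, which is not shown because it overlaps annotated exons. Over all 49 windows of the 20 imprinted genes that matched the RefSeq promoter table, 15 windows (30.6%) of 11 genes held it, against 12.7% of all 35116 windows of that length. Some of the 49 windows overlap each other. The motif contains a CG pair, and the median number of CG pairs per window was 16 for the imprinted genes and 11.0 over all windows. The windows shown had 10 CG pairs (MKRN3), 8 (MAGEL2), 16 (MEST), 15 (ZDBF2) and 16 (NAP1L5). MEST and ZDBF2 have several starts, and the files do not say which was used.

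The comparison of lines with and without t(4;11) asked which imprinted genes differed with the translocation. MKRN3 had counts in the lines without it alone, and MEST was many times higher in the lines with it. CDKN1C, SGCE, L3MBTL1 and NAP1L5 had lower levels in RS4;11 and SEM than in NALM6 and REH, and UBE3A slightly higher ones. The other tested genes overlapped between groups. At an adjusted p under 0.05, none of the 17 imprinted genes that could be tested was called by edgeR's quasi-likelihood method, which called 0% of all 13844 genes. At an unadjusted p under 0.05 it gave 1 imprinted gene higher (MEST) and 2 lower (MKRN3 and CDKN1C), against 6.18% of all genes higher and 5.87% lower. DESeq2 and edgeR's exact test each called the same 2 genes, MEST higher and MKRN3 lower. DESeq2 called 5.32% of all genes higher and 5.06% lower, and the exact test 1.91% and 1.03%.

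Of the 17 genes, 2 (11.8%) had RS4;11 and SEM both above NALM6 and REH, and 5 (29.4%) had them both below. Over all tested genes these shares were 19.0% and 28.3%, so neither count stood far from the background. The median log2 fold change of the 17 genes was -0.14, against -0.02 over all tested genes, and it was -0.50 without SEM and 0.05 without REH. The median size of the log2 fold change, sign aside, was 0.61 against 0.46. The 14 genes that were not tested had too few counts in too many lines, and an exact permutation test of 2 against 2 lines cannot give a p under 0.333.

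**Figure D2:**
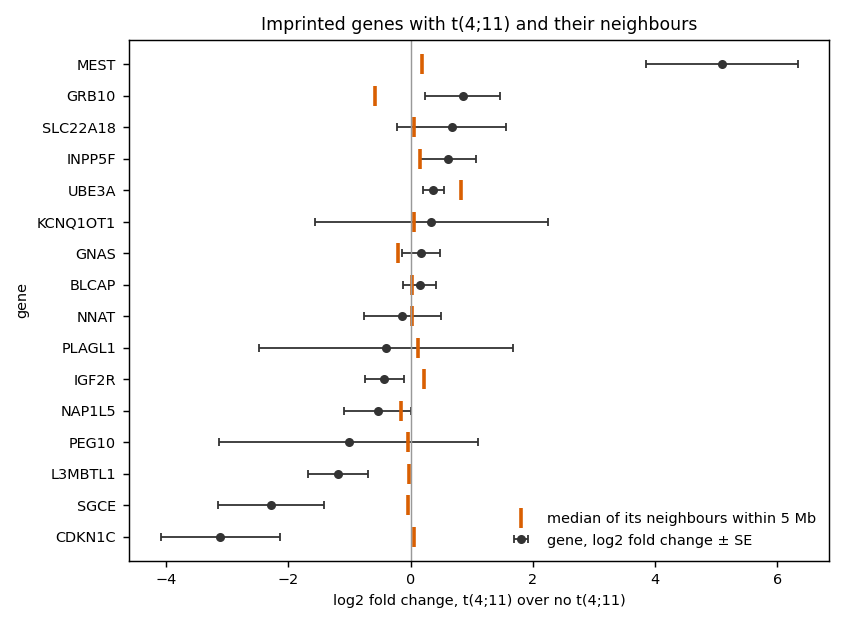
Log2 fold change with t(4;11) (points, bars are ± 1 SE from edgeR) of the 16 tested imprinted genes with counts in both groups. Orange marks give the median log2 fold change of the other expressed genes within 5 Mb, and MEST stands at 5.09 while its neighbours stand at 0.19.

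MEST, on 7q32, encodes a hydrolase-like protein of mesoderm and is classed here as used from the paternal copy. Its several starts were not counted apart, and which copy these lines used was not read. It had 6914 counts (133 CPM) in RS4;11 and 2214 (65.9 CPM) in SEM. It had 34 counts (0.758 CPM) in NALM6 and 463 (5.50 CPM) in REH. Both t(4;11) lines stood above both others, and NALM6 was lowest. The group means were 99.6 ± 47.7 CPM and 3.13 ± 3.35 CPM (SD, n = 2 each), a 31.8-fold difference. The log2 fold change was 5.09 (SE 1.24, edgeR adjusted p = 0.355). It was 4.28 without NALM6, 4.49 without RS4;11 and 7.13 without REH. The authors' deposited DESeq table gave an adjusted p of 0.00612, in a table that called 0.934% of genes higher. The authors' deposited Cuffdiff table gave q = 0.646 at 44.4 against 1.30 FPKM (fragments scaled to transcript length and library size). MEST shares its locus there with 4 other entries (chromosome 7, 130126016 to 130371406, hg19), among them COPG2, a coat protein gene. COPG2, named after its values were seen, had 46.9, 38.8, 33.5 and 28.8 CPM in RS4;11, SEM, NALM6 and REH, so it too stood higher in both t(4;11) lines, by 1.37-fold between means. The 50 other expressed genes within 5 Mb had a median log2 fold change of 0.19.

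The 15q11-q13 domain is the Prader-Willi and Angelman region, in which a row of genes is used from the paternal copy and UBE3A, in neurons, from the maternal one. MKRN3, a ubiquitin ligase that restrains the onset of puberty, had 0 counts in RS4;11 and in SEM. It had 2106 counts (47.0 CPM) in NALM6 and 1966 (23.3 CPM) in REH. The groups did not overlap, and the level without t(4;11) was at least 478-fold higher, taking a floor of 3 counts per t(4;11) line. The edgeR adjusted p was 0.292 (unadjusted p = 0.00151), and the adjusted p lay between 0.301 and 0.593 when 1 line was left out. MKRN3 was called lower in the authors' deposited DESeq table (adjusted p = 5.24e-09), which called 0.630% of genes lower. It was also called in their deposited Cuffdiff table (q = 0.00418), which called 1.11% of genes lower and 1.23% higher. It lies on chromosome 15 (23810454 to 23813166, hg19).

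The nearest imprinted neighbours of MKRN3 were nearly silent. MAGEL2, a partner of ubiquitin ligases in protein sorting, had 1, 5, 3 and 89 counts in RS4;11, SEM, NALM6 and REH. REH alone reached 1 CPM (1.06 CPM), and NALM6, where MKRN3 was highest, had 0.0669 CPM of MAGEL2. NDN, which encodes the growth suppressor necdin, had 7 counts in SEM (0.208 CPM) and 0 in the other 3 lines. UBE3A, a ubiquitin ligase, had 219, 190, 167 and 172 CPM in the same order of lines. Its t(4;11) lines stood slightly above the others (log2 fold change 0.37, SE 0.17, edgeR adjusted p = 0.484).

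In RS4;11, IPW and the PAR transcripts of the SNURF-SNRPN unit, the long paternal transcript between NDN and UBE3A, had 0 or 1 count. SNRPN itself, a splicing protein, was listed at 0 counts in 3 lines and 1 count in NALM6. It shares its locus (chromosome 15, 25068794 to 25223729, hg19) and exons with SNURF. In the authors' deposited Cuffdiff table SNURF stood at 39.6 FPKM with t(4;11) and 75.7 FPKM without it, and SNRPN near 0. The count of SNRPN therefore gives no level for it. Reads of a locus that 2 genes share can be dropped or given to 1 of them, and the counting rule is not given in the sources used here.

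Transcripts further along that unit have counts of their own; apart from SNURF they were picked after their values were seen. IPW, a noncoding RNA, had 1 count in RS4;11 and 664, 566 and 1276 counts in SEM, NALM6 and REH (19.7, 12.6 and 15.2 CPM). PAR5 had 1 count in RS4;11 against 12.4, 10.7 and 17.4 CPM. PAR-SN had 0 counts in RS4;11 against 3.60, 3.43 and 4.30 CPM. SNURF had 0 counts in RS4;11 and 13, 35 and 41 in the others. Summed over these genes, PAR1 and SNRPN, RS4;11 had 2 counts (0.0386 CPM) and the others between 27.7 CPM (NALM6) and 37.5 CPM (REH). SEM, the other t(4;11) line, had 36.2 CPM, so this pattern set 1 line apart and not the groups. UBE3A, beyond the unit, was highest in RS4;11. The 76 entries of the snoRNA families SNORD115 and SNORD116, which lie in this unit, had 0 counts in all lines. Small RNAs of their length are largely lost in mRNA libraries.

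**Figure D3:**
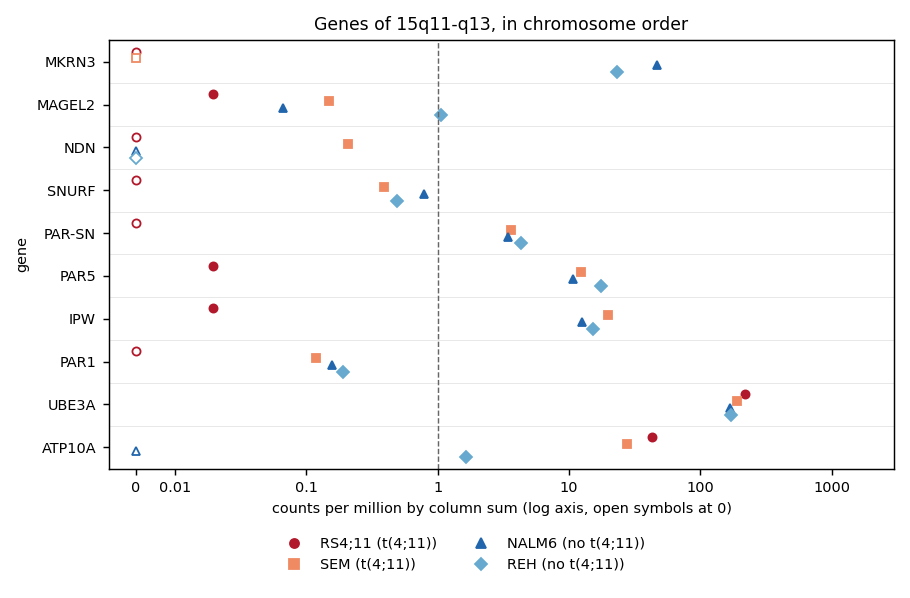
CPM (log axis, open symbols at 0) of genes along 15q11-q13 in the 4 lines. MKRN3 is at 0 in both t(4;11) lines, SNURF to PAR1 are at 0 or 1 count in RS4;11 only, and UBE3A is between 167 and 219 CPM in all lines.

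Of 37 further genes listed for the imprinted domains, 35 were in the table and 12 were tested. None of the 12 was called by edgeR's quasi-likelihood test, 0 had a higher and 1 a lower level with an unadjusted p below 0.05, and their median log2 fold change was -0.07. ATP10A, a lipid flippase gene of 15q11-q13, is one of them and was named after its values were seen, as were the other genes of that list named below. RS4;11 had 42.9 CPM of it and SEM 27.5 CPM, against no counts in NALM6 and 1.64 CPM for REH. The edgeR log2 fold change was 5.50 (SE 2.36, adjusted p = 0.472), the opposite direction from MKRN3. The authors' deposited DESeq table called it higher (adjusted p = 4.91e-08), and their deposited Cuffdiff table did not (q = 0.875). The 23 other expressed genes within 5 Mb of the domain had a median log2 fold change of 0.83, or 0.16 within 10 Mb. Whether gains or losses of chromosome segments bear on these values was not tested.

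The 11p15.5 domain holds the growth factor gene IGF2, the noncoding RNA H19, and a second cluster controlled through KCNQ1OT1. KCNQ1OT1 is a noncoding RNA made from the paternal copy inside the gene of the potassium channel KCNQ1, and it silences genes around it on that copy. KCNQ1OT1 had 607, 748 and 1278 counts in RS4;11, SEM and NALM6 (11.7, 22.2 and 28.5 CPM) and 27 counts in REH (0.321 CPM). REH was 88.9-fold below NALM6, while the group means differed little (17.0 ± 7.46 and 14.4 ± 19.9 CPM, SD, n = 2 each). The log2 fold change, 0.34 (SE 1.91, edgeR adjusted p = 0.958), became 5.81 without NALM6, -0.65 without REH and -0.17 without SEM.

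CDKN1C and KCNQ1, and H19 outside that second cluster, were highest in REH, the line with the least KCNQ1OT1. SLC22A18 was highest in SEM. REH was the highest line for 32.4% of all genes at 1 CPM or more in a line. Whether KCNQ1OT1 bears on any of these levels was not tested. CDKN1C, an inhibitor of cyclin-dependent kinases used from the maternal copy, had 0.231, 0.208, 0.870 and 3.24 CPM in RS4;11, SEM, NALM6 and REH. Its groups did not overlap (log2 fold change -3.11, SE 0.98, edgeR adjusted p = 0.399), and the value was -1.87 without REH and -3.77 without NALM6. KCNQ1, from the list of domain neighbours, had 586 counts in REH (6.96 CPM) and 0 in the other 3 lines. REH was thus at least 78.0-fold above the floor of SEM, the highest floor of those lines. The library kit does not mark strand, so reads of KCNQ1 and of the RNA antisense to it cannot be told apart where their exons overlap. H19, used from the maternal copy, had 407 counts in REH (4.83 CPM) and 8, 2 and 6 in RS4;11, SEM and NALM6.

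The other 11p15.5 genes varied in which line was highest. CD81, a partner of the B-cell receptor complex, was lowest in REH (142 CPM against 228 to 325 CPM), and NAP1L4 lay between 183 and 199 CPM in all lines, highest in REH. SLC22A18, a membrane transporter, had 5.38, 7.50, 1.67 and 6.96 CPM in RS4;11, SEM, NALM6 and REH and was lowest in NALM6. Its log2 difference between groups of 0.67 (SE 0.89, edgeR adjusted p = 0.797) was -0.01 without NALM6 and 2.04 without REH. OSBPL5, a lipid transfer protein gene of the same domain but not next to it, was also lowest in NALM6 (0.446 CPM). OSBPL5 was highest in REH (35.2 CPM), with 19.6 CPM in RS4;11 and 12.2 CPM in SEM. PHLDA2, a brake on placental growth, had 1 count in all, in REH. IGF2 had 0 counts in every line. The 90 other expressed genes within 5 Mb had a median log2 difference of -0.06 between REH and the other lines.

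**Figure D4:**
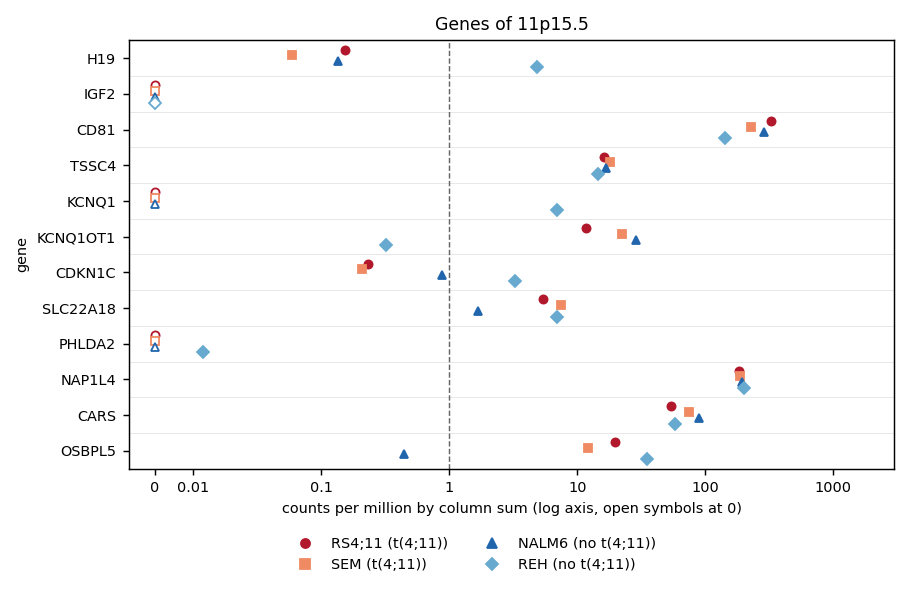
CPM (log axis, open symbols at 0) of genes of 11p15.5 in the 4 lines. KCNQ1OT1 is lowest in REH, at 0.321 CPM. KCNQ1, CDKN1C and H19 are highest in REH, at 6.96, 3.24 and 4.83 CPM, and a link between these levels was not tested.

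Of 11 listed genes of IGF2 signalling and binding, 6 stood at 1 CPM or more in every line and 2 were under 1 CPM in all. The 2 were IGFBP3, with 0 counts in every line, and IGF1, with at most 0.0475 CPM (REH). IGF2BP1 had 293 CPM in REH and at most 0.119 CPM in the other lines, and IGFBP4 had 0.443 CPM in RS4;11. These 4 genes were named after their values were seen. The receptor genes IGF1R and INSR, of the IGF2 list and named after their values were seen, were on in every line. IGF1R had 152, 175, 141 and 143 CPM in RS4;11, SEM, NALM6 and REH, and INSR 189, 201, 181 and 440 CPM. IGF2R, which binds IGF2 and takes it to the lysosome, had 166, 225, 347 and 218 CPM in RS4;11, SEM, NALM6 and REH. The groups overlapped (log2 fold change -0.43, SE 0.32, edgeR adjusted p = 0.637), and the value was -0.05 without NALM6. GRB10, an adaptor that dampens insulin and IGF signalling, had 63.2, 177, 91.3 and 51.0 CPM in the same order and was highest in SEM. Its log2 difference between groups of 0.85 (SE 0.62, edgeR adjusted p = 0.635) was -0.05 without SEM. The 11 other expressed genes within 5 Mb of GRB10 on 7p12 stood lower in SEM, with a median log2 difference of -0.56 from the other lines. COBL, a neighbour of GRB10 that nucleates actin, had 0 counts in both t(4;11) lines, 8.14 CPM in NALM6 and 5.72 CPM in REH. It was called lower in the authors' deposited DESeq (adjusted p = 3.71e-04) and Cuffdiff (q = 0.00418) tables.

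Of 11 genes of IGF2 signalling and binding, 8 were tested and none was called by edgeR's quasi-likelihood test. At an unadjusted p under 0.05, 1 was higher (IRS1) and 1 lower (IGFBP2). IRS1, the docking protein of insulin and IGF receptors, had 54.0, 64.1, 22.5 and 11.7 CPM in RS4;11, SEM, NALM6 and REH. The authors' deposited DESeq table called IRS1 higher (adjusted p = 0.0280), and their deposited Cuffdiff table did not call it (q = 0.206). IGFBP2, an IGF-binding protein, had 29.9, 59.4, 121 and 403 CPM and stood lower with t(4;11) at q = 0.00418 by the authors' deposited Cuffdiff table. Their deposited DESeq table did not call IGFBP2 (adjusted p = 0.996). The median log2 fold change of the 8 genes was -0.33.

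The 7q21 domain holds PEG10 and SGCE, which lie head to head and are both used from the paternal copy. PEG10, a retrotransposon-derived gene of placenta and proliferating cells, had 10.7, 93.8, 2.90 and 221 CPM in RS4;11, SEM, NALM6 and REH. Each group held a high and a low line, so the groups overlapped (log2 fold change -1.01, SE 2.12, edgeR adjusted p = 0.879). Its sign turned without REH, at 4.26, and the value was -0.16 without RS4;11, -1.99 without NALM6 and -3.26 without SEM. SGCE, a sarcoglycan of the cell membrane, had 1.83, 6.34, 13.3 and 29.1 CPM in the same order. Both t(4;11) lines were below both others, by 5.19-fold between means (log2 fold change -2.28, SE 0.87, edgeR adjusted p = 0.439). The log2 value was -1.61 without REH, -1.64 without RS4;11 and -3.40 without SEM.

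SGCE and PEG10 both peaked in REH, but their order in the other lines differed: NALM6 was second for SGCE and lowest for PEG10. In the authors' deposited FPKM, which are per length, PEG10 stood at 8.10 with t(4;11) and 16.3 without it, and SGCE at 2.65 and 12.9. PPP1R9A, a neuronal actin-binding protein, had 68 counts in SEM (2.02 CPM) and 0 in the other lines. PON2, an antioxidant lactonase gene of the same domain, had 17.9 CPM in SEM and 0 counts in the other lines as well. TFPI2, a protease inhibitor, had 0 counts in every line. The 68 other expressed genes within 5 Mb had a median log2 difference of 0.36 between REH and the other lines, and of -0.26 for NALM6.

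ZDBF2 and PLAGL1 also differed widely between lines of one group. ZDBF2, a zinc finger gene on 2q33 used from the paternal copy, had 1288 counts in SEM (38.3 CPM). It had 1, 4 and 1 counts in RS4;11, NALM6 and REH, so SEM alone carried it and the other t(4;11) line did not. PLAGL1, a zinc finger regulator of growth on 6q24, had 6.65, 10.1 and 23.5 CPM in RS4;11, SEM and REH and 0.134 CPM (6 counts) in NALM6. The groups overlapped, and its log2 difference between groups of -0.40 (SE 2.08, edgeR adjusted p = 0.955) became 6.04 without REH and -1.38 without NALM6. Within 5 Mb the other expressed genes had median log2 differences of 0.05 for SEM around ZDBF2 and -0.13 for NALM6 around PLAGL1.

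DLK1, a NOTCH-like membrane protein of fetal and progenitor cells on 14q32, had 142 counts in REH (1.69 CPM) and 0 in the other lines. MEG3, the maternally used noncoding RNA beside it, had 0 counts in every line. PEG3 and ZIM2, zinc finger genes that share a locus on 19q13.4, also had 0 counts in every line. DIRAS3, a RAS-like growth inhibitor on 1p31, had 3 counts in SEM, 1 in REH and 0 in the others. The 5 imprinted genes at 0 in all lines were thus IGF2, MEG3, PEG3, ZIM2 and TFPI2. With 0 counts, a level up to the floor of each line cannot be told from silence.

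Of the 11 genes on in all lines, 6 belong to the 8 whose imprint is limited to certain tissues or transcripts: UBE3A, GRB10, GNAS, IGF2R, BLCAP and INPP5F. Of the 18 genes classed as used from the paternal copy, 4 were on in all lines (PEG10, SGCE, L3MBTL1 and NAP1L5). Another 7 of them were on in 1 to 3 lines and 7 in none. Of the 5 maternal ones, 1 was on in all lines (SLC22A18), 2 in 1 line (H19 and CDKN1C) and 2 in none. These classes are textbook assignments and were not read from these data.

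GNAS, the stimulatory G protein subunit behind hormone receptors, had 1075, 698, 921 and 773 CPM in RS4;11, SEM, NALM6 and REH. In the authors' deposited FPKM it was the highest of these imprinted genes, at 550 with t(4;11) and 487 without it. Among 14203 genes tested in that table it ranked 126 and 130. The log2 fold change was 0.17 (SE 0.31, edgeR adjusted p = 0.856) and -0.18 without RS4;11. Its several promoters, which differ in imprinting, are summed in 1 entry.

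BLCAP, an apoptosis-linked gene on 20q11, had 33.0, 46.6, 41.0 and 35.9 CPM in RS4;11, SEM, NALM6 and REH. NNAT, a gene of the developing brain that lies inside a BLCAP intron and shares its locus, had between 0.578 and 0.867 CPM. Both overlapped between groups. BLCAP had a log2 fold change of 0.15 (SE 0.27) and NNAT one of -0.14 (SE 0.63). Each sign turned when 1 line was left out: BLCAP without SEM (-0.09) and NNAT without RS4;11 (0.08). INPP5F, a phosphoinositide phosphatase on 10q26, had 24.3, 44.0, 18.1 and 29.7 CPM and also overlapped (log2 fold change 0.61, SE 0.46, edgeR adjusted p = 0.642). The INPP5F value was 0.15 without SEM and 1.01 without REH.

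L3MBTL1, a chromatin-compacting protein on 20q13.1 in a region often lost in myeloid disease, had 5.59, 5.44, 10.3 and 16.6 CPM in RS4;11, SEM, NALM6 and REH. The t(4;11) lines were lower by 2.44-fold between means without overlap (log2 fold change -1.19, SE 0.49, edgeR adjusted p = 0.461). Its 55 expressed neighbours had a median of -0.03. NAP1L5, a nucleosome assembly gene on 4q22 lying inside HERC3, had 8.83, 4.67, 10.6 and 10.5 CPM in RS4;11, SEM, NALM6 and REH. Its log2 difference between groups of -0.54 (SE 0.55, edgeR adjusted p = 0.733) was -0.13 without SEM. HERC3 itself, named after its values were seen, had 42.0, 34.5, 61.8 and 60.5 CPM in the same order. It also stood lower in both t(4;11) lines (log2 fold change -0.57, SE 0.22, edgeR adjusted p = 0.436). The library kit does not mark strand, and whether HERC3 reads enter the NAP1L5 count was not tested.

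Most genes of a list on imprint maintenance were expressed in all lines. The list is broader than the genes that keep imprints: it also holds the methylcytosine-oxidising TET1, TET2 and TET3 and the germ-cell gene CTCFL. Of the 16 listed genes, 11 stood at 1 CPM or more in every line, TET2 and TET3 among them. Both t(4;11) lines stood below both others for 7 of the 16, and above for 1 (ZFP57, which was not tested). Over all tested genes these shares were 28.3% and 19.0%. The 7 were all tested and included TET1, TET2 and TET3. The test by edgeR's quasi-likelihood method covered 12 and called none. At an unadjusted p under 0.05, 0 were higher and 1 was lower, and the median log2 fold change was -0.20. That gene was TET1, which oxidises methylcytosine and had 3.03, 0.744, 17.5 and 30.4 CPM in RS4;11, SEM, NALM6 and REH. It was called lower in the authors' deposited DESeq table (adjusted p = 0.00395) and not called in their deposited Cuffdiff table (q = 0.251). ZNF445, a zinc finger protein that keeps imprints, had 94.2, 96.3, 110 and 64.7 CPM in RS4;11, SEM, NALM6 and REH. ZFP57, which does the same, had at most 0.178 CPM. CTCFL, a germ-cell relative of the insulator protein CTCF, had 5.26 CPM in REH and 0 counts elsewhere. CTCFL was called lower with t(4;11) in the authors' deposited Cuffdiff table (q = 0.00748) and not in their deposited DESeq table (adjusted p = 1.00). ZNF445, ZFP57, TET2 and TET3 were named here after their values were seen.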

How the data were processed

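Libraries were made with the TruSeq RNA kit, per the labels' protocols, a kit that does not mark strand. Tools named in the submitters' processing notes, without settings, are CASAVA (1.8.2), TopHat and TopHat2 (2.0.4), HTSeq, DESeq and Cuffdiff, with build hg19. The annotation is not given in the sources used here, and 4 columns of DESeq-normalized values were not used. The deposited count is the HTSeq count per gene and line. The deposited table also gives the authors' fold change (a ratio), p-value and adjusted p-value, and the deposited Cuffdiff table gives FPKM per group, a log2 fold change and q-value. The deposited fold changes were turned so that positive is higher with t(4;11). Lines were grouped by the labels.

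CPM used column sums. The whole table was tested with edgeR 4.0.16 (R 4.3.3; TMM, filterByExpr, quasi-likelihood, two-sided, Benjamini-Hochberg), which kept 13844 genes. SE is the log2 fold change divided by the square root of F. In simulated counts for this comparison, with 13844 genes, the recovered share was 13.3% at a true 4-fold change, 60.0% at 16-fold, 70.7% at 64-fold and 85.3% at 256-fold. Those counts had 200 changed genes and otherwise 1 mean per gene for all lines, unlike lines from different leukemias. The fit to the real counts called 0 genes, MKRN3 with its at least 478-fold difference included. The shares therefore do not give the power of the test for these lines. Alternatives were DESeq2 1.42.0, the exact test, other scaling, no filter and leaving out each line. Neighbours are tested genes within 5 Mb in hg19 (per-line medians on log2 of CPM plus 1). Promoter windows come from the RefSeq table in GRCh38.p14. By the naming rule, all 31 genes are given, with others from the imprint maintenance and IGF2 lists if called in a deposited table. Further names are stated where used. The members and lists were chosen with earlier results of these data known. P-values measure the spread between lines.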

Additional observations from a re-analysis of the deposited data

How the results depend on the processing

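No paired analysis was possible because the replicate numbers follow listing order and pair no lines. RLE size factors, unscaled column sums and no filter left 0 imprinted genes called, and each kept the direction of every tested imprinted gene. Over all genes, 5 were called without the filter, 408 by edgeR's exact test and 1354 by DESeq2, against 0. Both of the latter tests called 2 imprinted genes: MEST (log2 fold change 5.09 in each) and MKRN3 (adjusted p = 1.73e-10 by the exact test and 3.34e-13 by DESeq2). Leaving out each line in turn gave 0 calls throughout and a median log2 fold change of the imprinted genes between -0.50 and 0.05. With 1 line left in a group, that line is assumed to vary like the others. Signs turned for KCNQ1OT1 (-0.65 to 5.81), PEG10 (-3.26 to 4.26), GRB10 (-0.05 to 1.41), PLAGL1 (-1.38 to 6.04), NNAT (-0.36 to 0.08), GNAS (-0.18 to 0.47), BLCAP (-0.09 to 0.37) and SLC22A18 (-0.01 to 2.04).

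Leave-one-out counts, added after seeing the data, were 3 to 6 genes with t(4;11) above and 6 to 8 below, of 17. Fewer lines separate more easily, and over all tested genes the shares were 28.0% to 34.3% above and 39.4% to 45.3% below. Genes on in a line and off in another were 3 to 6, with 9.0% to 11.5% over all genes. Neighbour medians moved beyond the spread between lines with 2 Mb on each side for 15q11-q13 (0.75), 7p12 (-0.18), 1p31 (-0.02), 20q13.3 (0.05), 10q26 (0.31) and 2q33 (0.08). With 10 Mb they did so for 15q11-q13 (0.16), 7p12 (-0.85), 6q24 (-0.02) and 10q26 (-0.02); the cause was not tested. In SEM, the shallowest library, levels under 0.0892 CPM are under 3 counts.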
